A study of Arabidopsis thaliana with 12 samples.

Results

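The genes of the chloroplast and mitochondrial genomes were examined in rosette leaves of the *Arabidopsis thaliana* *kaku4-2* mutant and of Col-0 wild type (WT). The *kaku4-2* line (SALK_076754) is homozygous for a T-DNA insertion in *KAKU4*, a gene for a plant lamina component at the periphery of the nucleus. Whole rosette leaves of 30-day-old plants were sampled as 3 biological replicates of the *kaku4-2* mutant and 3 of WT, and both genotypes were grown under long days without further treatment. Both groups are thus bulk samples of all leaf cell types, and the mutant is represented by 1 insertion line. The genes were taken by locus ID: every row of the RNA-seq table whose ID begins with ATCG (chloroplast) or ATMG (mitochondrial) was included, whatever its value. This gave 125 of the 23069 rows, 67 of the chloroplast and 58 of the mitochondrial genome, beside 22944 rows of the nuclear chromosomes.

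The chloroplast genome encodes core subunits of the photosystems, the cytochrome b6f complex, the ATP synthase and the NDH complex, the large subunit of Rubisco, a plastid RNA polymerase and part of the plastid ribosome. The mitochondrial genome encodes subunits of the respiratory complexes and the ATP synthase, cytochrome c maturation proteins and ribosomal proteins. Both genomes lie outside the nucleus, but nearly all factors that transcribe, process and degrade their RNA are nuclear gene products imported into the organelle. Transcripts of both organelles are mostly not stably polyadenylated, and whether the libraries were selected for poly(A) RNA is not given in the sources used here. In bulk leaf RNA, fewer cells of a type, fewer organelles per cell and less RNA per organelle cannot be told apart.

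The table gives locus IDs without gene names. A name was used here where the study itself annotates the locus, or where a reference note for a nuclear copy names it as the best protein match, which gave 21 named loci (9 chloroplast, 12 mitochondrial); the other loci are given by ID and without a role. Since some names were taken from the study's own lists of changed genes, which loci carry a name is not independent of their values in these libraries.

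Many mitochondrial values cannot be assigned to the mitochondrial genome alone, because *Arabidopsis* chromosome 2 carries a large insertion of mitochondrial DNA. In the TAIR10.1 assembly, 150-base windows identical to the mitochondrial genome spanned chromosome 2 from 3239166 to 3509765 (270.6 kb), and 88.83% of the windows in this span matched exactly. The most abundant mitochondrial locus, ATMG01080 (F0-ATPase subunit 9, part of the membrane ring of the ATP synthase), and the nuclear locus AT2G07671 show the problem at the sequence level. The first 30 bases of the mitochondrial *atp9* gene (minus strand, mitochondrial positions 271156 to 271185, start codon in capitals) and the matching coding bases of AT2G07671 (minus strand, chromosome 2, 3252051 to 3252080) are shown because a read from either gene fits both:
*atp9*: ATGttagaaggtgcaaaatcaataggtgcc
AT2G07671: ATGttagaaggtgcaaaatcaataggtgcc
All 225 bases of the RefSeq *atp9* gene (270961 to 271185) were present in the 258-base coding sequence of AT2G07671, which starts 33 bases further upstream. None of the 9 named chloroplast loci shared a 150-base window with the mitochondrial genome, and only *rpl2*, which lies in the inverted repeat, had a second chloroplast copy.

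The values are FPKM, which the authors computed with Cufflinks. These are fragment counts scaled to transcript length and to a divisor for each library. *KAKU4* itself had 0.402, 0.433 and 0.313 FPKM in *kaku4-2*, against 2.69, 3.61 and 2.51 FPKM in WT (log2(fold change) −2.64, SE 0.41, adjusted p = 0.00933, limma), which fits the labels. Fragment totals were not given with the FPKM values. Spacing of the low FPKM values gave estimated divisors of 24100000 to 31900000 fragments in *kaku4-2* and 19300000 to 24000000 in WT. The study lists nearly equal total and mapped reads for all libraries, so these divisors scale the FPKM values and do not measure sequencing depth. Replicate 3 of *kaku4-2* stood apart from the other 5 libraries. Its FPKM values summed to 829805, whereas the sums ran from 1245643 to 1285627 in the other *kaku4-2* libraries and from 1298744 to 1767459 in WT. In this library, nuclear transcripts of 500 to under 1000 bases lay at a median of −0.93 from their mean over all libraries on the log2 scale, and those of 2000 bases or more at 0.78. The chloroplast loci (−0.52), the mitochondrial loci (−0.54) and the loci of the chromosome 2 insertion (−0.63) moved in the same direction as the short nuclear transcripts. The part of transcript length in the results below was not tested, so the counts of calls in each organelle genome are also given without this library.

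**Figure D1:**
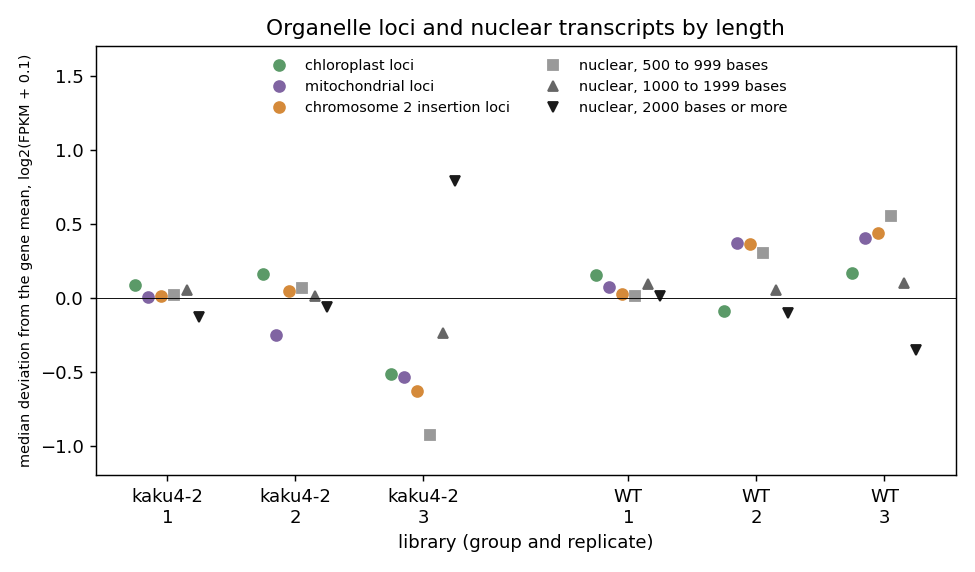
Median deviation of gene groups in each library from the mean over the 6 libraries, on the log2(FPKM + 0.1) scale (y axis), for *kaku4-2* libraries on the left and WT libraries on the right; each marker is the median of 1 gene group. In *kaku4-2* replicate 3, organelle loci (−0.52 and −0.54) and short nuclear transcripts (−0.93) lay below 0 and long nuclear transcripts (0.78) above it.

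The leaf identity of the samples was checked with marker genes. Of 6 mesophyll markers, 5 were listed, and *RBCS1A*, which encodes a small subunit of Rubisco, had 6535, 6461 and 8349 FPKM in *kaku4-2*, against 7464, 9455 and 7264 FPKM in WT. *LHCB2.1*, *CA1* and *GAPA*, all nuclear genes of photosynthesis, were lower in every *kaku4-2* library than in any WT library, without passing the cutoff (log2(fold change) −0.67, −0.72 and −0.43); 15.0% of all genes were lower in every mutant library. The groups overlapped in *RBCS1A* (−0.18) and *RCA* (−0.22). Flower markers stayed at or under 1.82 FPKM and seed storage markers at or under 0.212 FPKM. Of the root markers, *CASP1* stayed at or under 0.348 FPKM, while *PYK10* had 42.1, 39.2 and 67.2 FPKM in *kaku4-2*, against 46.3, 29.4 and 29.8 FPKM in WT, with overlapping groups. Their part in the organelle values was not tested. The senescence protease gene *SAG12* had 21.1, 21.1 and 10.3 FPKM in *kaku4-2*, against 4.03, 4.79 and 5.35 FPKM in WT (log2(fold change) 1.80, SE 0.34, adjusted p = 0.0339). The other 2 senescence markers, *SEN1* (log2(fold change) 0.52) and *NYE1* (0.28), did not pass the cutoff, and their groups overlapped. The part of leaf senescence in the organelle values was not tested.

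To ask whether organelle transcripts changed in the mutant, *kaku4-2* was compared with WT with limma, on log2(FPKM + 0.1), for the 20638 genes whose mean reached 0.1 FPKM, of which 111 were organelle loci (63 chloroplast, 48 mitochondrial). A gene was called when the log2 ratio of median FPKM was at least 0.6 in size and unadjusted limma P at most 0.05. These thresholds are those of the study, which does not name the test behind its P. The calls here are therefore not the study's own, and their numbers differ from those it reports. Of the 63 chloroplast loci, 2 were upregulated, *rpl22* among them, and 1 was downregulated (*rpl2*). Of all genes tested, 5.02% were upregulated and 6.64% were downregulated. Of the 48 mitochondrial loci, 1 was upregulated and 7 were downregulated. The share of upregulated loci was below that of all genes in both genomes. The share of downregulated loci was below it in the chloroplast and above it in the mitochondrial genome (14.58%). Among nuclear genes, 16.7% with transcripts under 300 bases, 14.1% with 500 to under 1000 bases and 2.35% with 2000 bases or more were downregulated. The 14 loci left out by the filter, 4 chloroplast and 10 mitochondrial, had means under 0.1 FPKM.

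No organelle locus reached an adjusted p of 0.05 (limma, Benjamini-Hochberg over all genes tested), a level reached by 0.480% of all genes. The smallest adjusted p was 0.26 among the chloroplast and 0.224 among the mitochondrial loci. At an unadjusted P of 0.05, 15 of the 111 loci passed (7 chloroplast, 8 mitochondrial), and 15.0% of all genes did. Lower values in the mutant prevailed in both genomes, with a log2(fold change) below 0 in 40 of 63 chloroplast and 35 of 48 mitochondrial loci, and in 51.1% of all genes. The median log2(fold change) was −0.20 for the chloroplast loci (25th to 75th percentile −0.44 to 0.16), −0.56 for the mitochondrial loci (−0.89 to 0.05) and −0.02 for all genes (−0.48 to 0.43). Without *kaku4-2* replicate 3 the chloroplast median was 0.06 and the mitochondrial median −0.33, so the direction of the chloroplast median rested on that library. Without it, 3 chloroplast loci were upregulated and 1 downregulated, and 0 mitochondrial loci were upregulated and 6 downregulated.

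**Figure D2:**
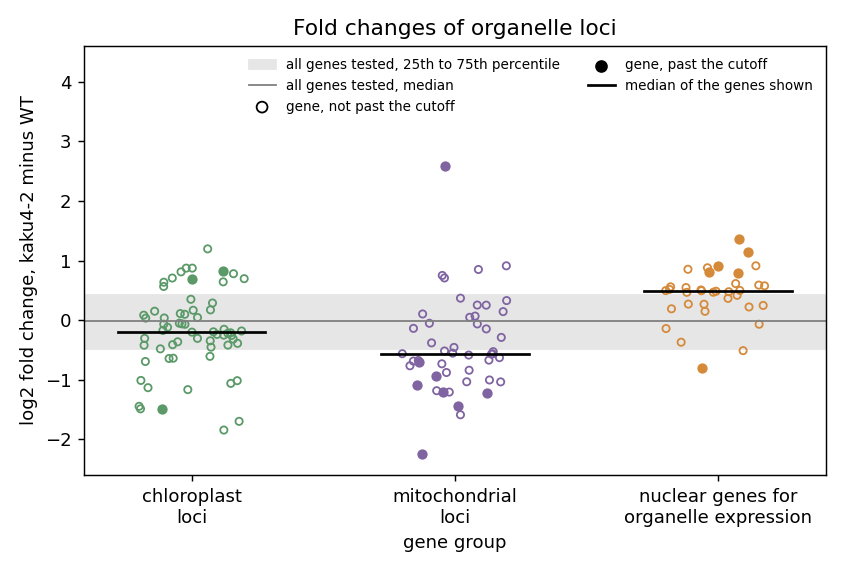
log2(fold change), *kaku4-2* minus WT (y axis), of the 63 chloroplast loci, the 48 mitochondrial loci and 35 nuclear genes for organelle gene expression; filled points passed the cutoff, black lines are medians (−0.20, −0.56 and 0.49), and the grey band spans the 25th to 75th percentile of all genes tested. Most mitochondrial points lie below 0 and most of the nuclear genes above it.

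The chloroplast loci spanned a wide range of levels. Their means over the 6 libraries ran from 0.00962 to 22149.5 FPKM, and 14 of the 67 had a mean of at least 100 FPKM. ATCG01020 alone held 64.8% to 69.8% of the chloroplast FPKM in *kaku4-2* and 78.0% to 84.6% in WT. It had 13875.9, 18460.5 and 9313.7 FPKM in *kaku4-2*, against 23601.0, 24937.5 and 42708.2 FPKM in WT. Every mutant library was thus below every WT library, as for 15.0% of all genes, but the difference did not pass the cutoff (log2(fold change) −1.13, SE 0.56, adjusted p = 0.344). It passed without *kaku4-2* replicate 3 (log2(fold change) −0.87, adjusted p = 0.272). The transcript length of ATCG01020 is not given in the sources used here. Of 85 chloroplast coding sequences in RefSeq, 21 were under 250 bases, compared with 1 of 33 mitochondrial ones. The estimate of the divisors subtracts 246 to 266 bases from the transcript length, so FPKM of loci that short is unstable. How far this affects the level of ATCG01020 was not tested.

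The next chloroplast loci by level did not separate the groups. ATCG00470 had 1764.4, 2523.2 and 1401.5 FPKM in *kaku4-2*, against 1471.8, 1758.8 and 2243.8 FPKM in WT. ATCG00790 had 1130.4, 1379.7 and 737 FPKM in *kaku4-2*, against 1432.4, 1309.7 and 1439.2 FPKM in WT. ATCG00780 had 443, 527 and 341 FPKM in *kaku4-2*, against 549, 388 and 430 FPKM in WT. In all 3 loci the 2 groups overlapped, and the lowest value was that of *kaku4-2* replicate 3. *psbG* (ATCG00430), an old name for a subunit of the NDH complex, had 482, 469 and 275 FPKM in *kaku4-2*, against 428, 392 and 475 FPKM in WT. ATCG00480 had 368, 448 and 444 FPKM in *kaku4-2*, against 333, 369 and 416 FPKM in WT. Their log2(fold change) lay between −0.41 and 0.17.

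As a share of the summed FPKM of a library, the chloroplast loci made up 1.63%, 2.06% and 1.73% in *kaku4-2*, against 2.33%, 2.04% and 2.86% in WT. The means were 1.81% ± 0.22 in *kaku4-2* and 2.41% ± 0.42 in WT (SD, n = 3 each; exact permutation test, two-sided p = 0.2, where the smallest p that 3 against 3 libraries can give is 0.1). Without ATCG01020 the other 66 loci made up 0.514%, 0.62% and 0.61% in *kaku4-2*, against 0.513%, 0.406% and 0.439% in WT. The direction was then the opposite, with every mutant library above every WT library (difference 0.129 percentage points, exact permutation test, p = 0.1). The summed FPKM of these 66 loci did not separate the groups, with 6405.7, 7971.9 and 5062.5 in *kaku4-2*, against 6661.5, 6221.2 and 7758.3 in WT. All *kaku4-2* libraries also had lower FPKM totals than all WT libraries, with the lowest in replicate 3 (share 0.61%). Within the mutant, replicate 2 had both the highest total and the highest share (0.62%). The groups thus separated only in the share, after division by these totals, and not in the summed FPKM. Why the totals differed was not tested. A share of FPKM is a share of length-scaled values and not of reads. The mitochondrial loci made up 0.0143%, 0.0126% and 0.0149% in *kaku4-2*, against 0.0133%, 0.0154% and 0.0147% in WT, and the groups overlapped (exact permutation test, p = 0.6).

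**Figure D3:**
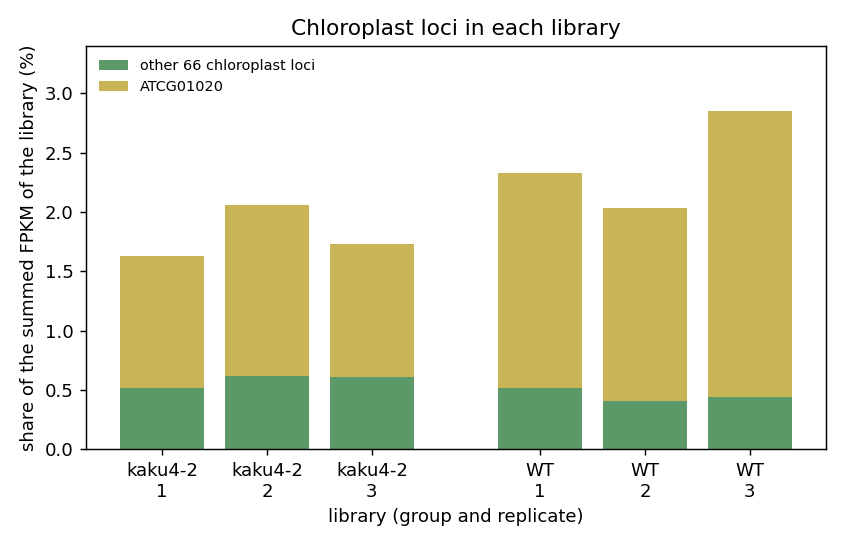
Share of the summed FPKM of each library held by ATCG01020 and by the other 66 chloroplast loci (y axis, percent), for *kaku4-2* libraries on the left and WT libraries on the right. The whole bars end at 1.63% to 2.06% in *kaku4-2* and at 2.04% to 2.86% in WT, while the lower segments reach 0.514% to 0.62% in *kaku4-2* and 0.406% to 0.513% in WT.

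Ribosomal protein genes were among the chloroplast calls. *rpl22* (ATCG00810; chloroplast genome of TAIR10.1, 83467 to 83949, minus strand), which encodes a protein of the large subunit of the plastid ribosome, had 130, 170 and 143 FPKM in *kaku4-2*, against 114, 81.6 and 81.9 FPKM in WT. The groups did not overlap (7.92% of all genes were higher in every mutant library), and the estimated fragments behind these values numbered 349 to 1010. The log2(fold change) was 0.68 (SE 0.27, adjusted p = 0.295). The call was lost without *kaku4-2* replicate 2 (0.58), without WT replicate 2 (0.60) and without WT replicate 3 (0.61).

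*rpl2* (ATCG01310; 84337 to 85843 on the minus strand, repeated at 152806 to 154312 on the plus strand) had 0.278, 0 and 0.0577 FPKM in *kaku4-2*, against 0.296, 0.502 and 0.458 FPKM in WT. All mutant values were below all WT values (log2(fold change) −1.49, SE 0.63, adjusted p = 0.311), but the estimated fragments numbered only 0 to 5.94 per library, and how its reads were divided between the 2 copies is not given in the sources used here. The call was lost without *kaku4-2* replicate 2 (−1.06), *kaku4-2* replicate 3 (−1.39), WT replicate 2 (−1.37) or WT replicate 3 (−1.43). Of 13 alternative settings of the test with a value, 6 lost this call. *rps15* (ATCG01120) had 37.1, 65.4 and 39.5 FPKM in *kaku4-2*, against 88.6, 61.0 and 62.7 FPKM in WT, with log2(fold change) −0.61 (adjusted p = 0.342). How many fragments lay behind these values could not be estimated. Its coding sequence of 267 bases is hardly longer than the 246 to 266 bases that the estimate subtracts from the transcript length. *rpl20* (ATCG00660) had 7.998, 6.75 and 6.62 FPKM in *kaku4-2*, against 8.24, 8.49 and 5.91 FPKM in WT, and its groups overlapped.

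The remaining named chloroplast loci fell on both sides. *cemA* (ATCG00530), which encodes a protein of the inner envelope membrane, had 19.9, 23.2 and 8.33 FPKM in *kaku4-2*, against 26.8, 28.9 and 45.6 FPKM in WT. The groups did not overlap and the unadjusted P was the lowest among the chloroplast loci (log2(fold change) −1.06, SE 0.38, adjusted p = 0.26), but the ratio of the medians (log2 −0.54) missed the cutoff. *clpP* (ATCG00670), for the catalytic subunit of the plastid Clp protease, had 75.1, 75.5 and 36.6 FPKM in *kaku4-2*, against 77.1, 74.5 and 98.4 FPKM in WT (log2(fold change) −0.48, adjusted p = 0.427). *rpoC2* (ATCG00170), for a subunit of the plastid-encoded RNA polymerase, had 0.673, 0.677 and 0.521 FPKM in *kaku4-2*, against 0.484, 0.248 and 0.332 FPKM in WT. Its groups did not overlap, on 19.8 to 64.6 estimated fragments per library, and it missed the cutoff (log2(fold change) 0.70, SE 0.49, adjusted p = 0.447). *petB* (ATCG00720), for cytochrome b6, had 4.404, 8.11 and 1.79 FPKM in *kaku4-2*, against 2.49, 1.57 and 3.61 FPKM in WT, and the groups overlapped.

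**Figure D4:**
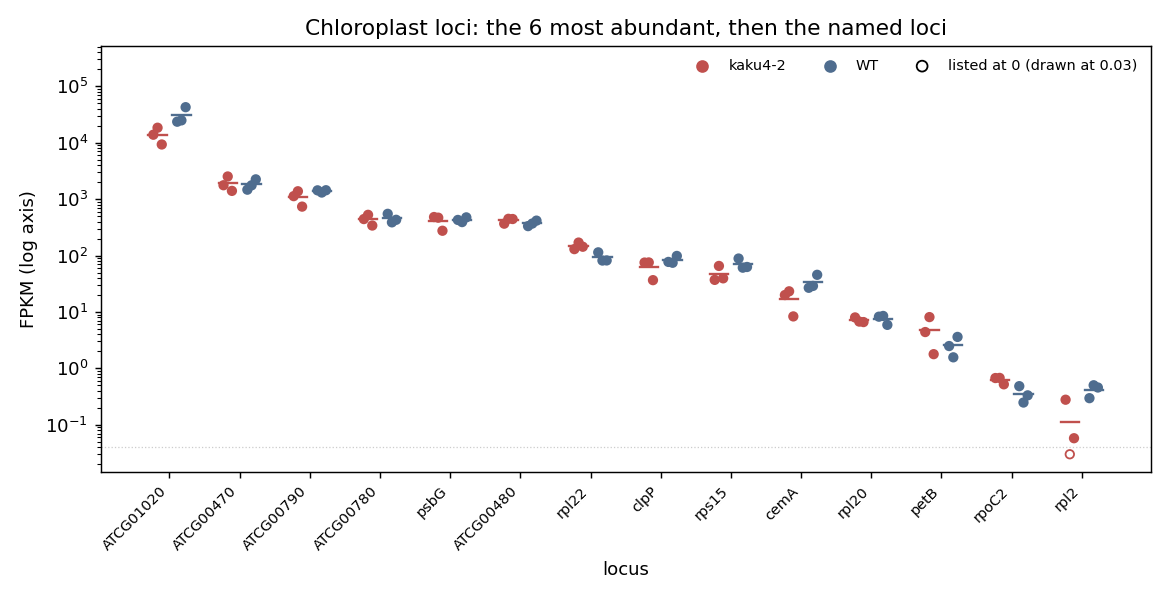
FPKM (log axis) of the 6 most abundant chloroplast loci and the other named ones, with *kaku4-2* (left of each pair) and WT (right); each point is a library, horizontal bars are group means, and open points mark values listed at 0, drawn at 0.03. Only ATCG01020, *rpl22*, *cemA*, *rpoC2* and *rpl2* show groups that do not overlap.

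The mitochondrial loci mostly had far lower FPKM values than the chloroplast loci. Their means ran from 0.0229 to 45.02 FPKM, and 33 of the 58 had a mean under 1 FPKM. Only 31 were above 0 in all 6 libraries, compared with 56 of the 67 chloroplast loci. ATMG01080 (F0-ATPase subunit 9) had 41.3, 41.0 and 22.4 FPKM in *kaku4-2*, against 38.0, 59.0 and 68.4 FPKM in WT. WT replicate 1 lay below 2 of the mutant values, and the difference did not pass the cutoff (log2(fold change) −0.67, SE 0.33, adjusted p = 0.338). ATMG01390 had 17.5, 18.9 and 18.4 FPKM in *kaku4-2*, against 19.9, 24.0 and 28.2 FPKM in WT, without overlap and without passing the cutoff (log2(fold change) −0.38, adjusted p = 0.449). ATMG01370 had 15.8, 22.5 and 10.7 FPKM in *kaku4-2*, against 20.7, 21.1 and 26.3 FPKM in WT. ATMG00020 had 11.96, 13.4 and 13.4 FPKM in *kaku4-2*, against 10.5, 15.3 and 17.8 FPKM in WT, and ATMG00690 had 11.3, 9.25 and 4.14 FPKM in *kaku4-2*, against 9.50, 9.75 and 13.9 FPKM in WT. In the last 3 loci the groups overlapped.

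The fifth locus by level, ATMG01220, was downregulated. It had 12.9, 2.92 and 7.45 FPKM in *kaku4-2*, against 11.2, 21.9 and 23.5 FPKM in WT (log2(fold change) −1.44, SE 0.47, adjusted p = 0.228). *kaku4-2* replicate 1 lay above WT replicate 1, and without *kaku4-2* replicate 2 the log2(fold change) was −0.86. ATMG00080 had 1.37, 1.12 and 1.36 FPKM in *kaku4-2*, against 2.11, 3.64 and 3.72 FPKM in WT, with no overlap (log2(fold change) −1.197, SE 0.38, adjusted p = 0.224). These were the only 2 of the organelle calls described here that held under all 14 alternatives of the test.

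Of 4 loci named or noted as mitochondrial ATP synthase subunits, 2 were downregulated. ATMG01080 did not pass the cutoff and *atp1* was not tested. The role of ATMG01090 rests only on the note of the nuclear locus AT2G07777 (chromosome 2, 3249396 to 3251545). The *atp9* match in AT2G07671 lies outside that span, so whether ATMG01090 encodes such a subunit is open. *atp6-1* (ATMG00410), whose product is part of the proton channel, had 0.374, 0.268 and 0.206 FPKM in *kaku4-2*, against 1.02, 0.629 and 0.729 FPKM in WT (log2(fold change) −1.22, SE 0.49, adjusted p = 0.295). ATMG01090, noted as ATP synthase 9, had 4.82, 4.32 and 3.26 FPKM in *kaku4-2*, against 5.54, 7.76 and 6.94 FPKM in WT (log2(fold change) −0.70, SE 0.32, adjusted p = 0.329). Neither showed overlap between the groups, as for 10 of the 48 mitochondrial loci that were lower in every mutant library, compared with 15.0% of all genes, and 0 that were higher. The call of *atp6-1* was lost without *kaku4-2* replicate 2 (−1.21), WT replicate 1 (−1.05) or WT replicate 3 (−1.26), and that of ATMG01090 without any library but WT replicate 1 (−0.54 to −0.81). Of all 14 alternatives of the test, 9 lost the call of ATMG01090.

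The other 3 downregulated loci had no name. ATMG01200 had 1.45, 0.967 and 0.451 FPKM in *kaku4-2*, against 1.47, 2.50 and 2.07 FPKM in WT (log2(fold change) −1.09, adjusted p = 0.311), and its call was lost without *kaku4-2* replicate 3 (−0.69), WT replicate 2 (−0.93) or WT replicate 3 (−1.06). ATMG00670 had 2.35, 2.76 and 1.77 FPKM in *kaku4-2*, against 2.21, 7.07 and 5.46 FPKM in WT (log2(fold change) −0.94, adjusted p = 0.33), and WT replicate 1 lay among the mutant values. Its call was lost without *kaku4-2* replicate 1 (−0.97), *kaku4-2* replicate 3 (−0.77), WT replicate 2 (−0.61) or WT replicate 3 (−0.79). Of all 14 alternatives of the test, 9 lost this call. ATMG01060 was listed at 0 in all 3 *kaku4-2* libraries, against 1.19, 0 and 0.734 FPKM in WT (adjusted p = 0.284), and its call was lost without WT replicate 1 (adjusted p = 0.381) or WT replicate 3 (adjusted p = 0.829).

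The single upregulated mitochondrial locus, ATMG01120, had 1.91, 0 and 0.975 FPKM in *kaku4-2* and was listed at 0 in all WT libraries (adjusted p = 0.258). Its call was lost without *kaku4-2* replicate 1 (adjusted p = 0.316), *kaku4-2* replicate 3 (adjusted p = 0.387) or WT replicate 1 (adjusted p = 0.293). The calls of ATMG01060 and ATMG01120 thus rested on a few low values and zeros. *cox3* (ATMG00730), for a subunit of cytochrome c oxidase, had 1.01, 0.308 and 0.21 FPKM in *kaku4-2*, against 0.843, 1.29 and 0.564 FPKM in WT (log2(fold change) −0.88, adjusted p = 0.415). ATMG01280, noted as *cox2*-like, had 0.958, 1.24 and 0.864 FPKM in *kaku4-2*, against 1.15, 0.921 and 1.09 FPKM in WT, and ATMG00560, noted as an OB-fold-like protein, had 0.3003, 0.102 and 0.277 FPKM in *kaku4-2*, against 0.106, 0.2404 and 0 FPKM in WT. Both had overlapping groups and missed the cutoff. *atp1*, *nad3*, *nad2B* and both named cytochrome c maturation loci had means under 0.1 FPKM and were not tested.

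**Figure D5:**
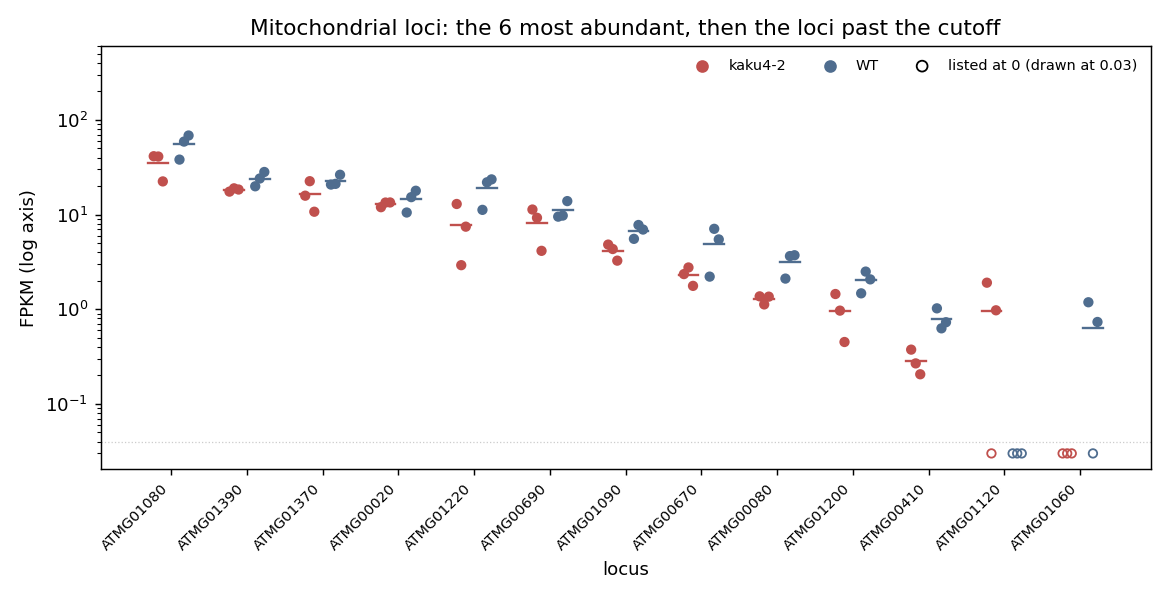
FPKM (log axis) of the 6 most abundant mitochondrial loci and the other loci past the cutoff, with *kaku4-2* (left of each pair) and WT (right); each point is a library, horizontal bars are group means, and open points mark values listed at 0, drawn at 0.03. ATMG01390, ATMG01090, ATMG00080, ATMG01200 and ATMG00410 show lower values in every *kaku4-2* library.

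Because reads from a mitochondrial locus and from its copy in chromosome 2 can be identical, the 10 mitochondrial loci with an annotated nuclear copy in the table were set beside that copy. ATMG01080 and AT2G07671 had similar levels, and the mitochondrial locus held 37.7% to 49.7% of the pair's FPKM over the 6 libraries. AT2G07671 had 50.3, 67.8 and 24.99 FPKM in *kaku4-2*, against 53.5, 71.3 and 69.1 FPKM in WT (log2(fold change) −0.54, SE 0.35, adjusted p = 0.414). Its lowest value was in *kaku4-2* replicate 3, as in ATMG01080. In other pairs the division was uneven. ATMG01220 held 96.7% to 99.8% of its pair, whereas ATMG01330 held 0% to 7.96%. The nuclear copy of ATMG00370, noted as a Ycf1 protein, was downregulated, with 1.36, 1.52 and 1.299 FPKM in *kaku4-2* and 3.34, 2.74 and 2.44 FPKM in WT (log2(fold change) −0.97, SE 0.36, adjusted p = 0.278), while ATMG00370 itself was at 0 in all libraries but WT replicate 2 (0.137 FPKM). Of the 63 listed loci inside the insertion, 48 were tested, of which 0 were upregulated and 5 were downregulated, against 5.02% and 6.64% of all genes. Their median log2(fold change) was −0.38 (−0.21 without *kaku4-2* replicate 3), with 37 of 48 below 0, against 51.1% of all genes. Which genome the reads came from was not tested.

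The nuclear genes for organelle gene expression, a list of 35 chosen by their role, mostly had a log2(fold change) above 0. Of these, 5 were upregulated and 1 was downregulated, against 5.02% and 6.64% of all genes. None reached an adjusted p of 0.05 (limma), and 6 had an unadjusted P of at most 0.05, as did 15.0% of all genes. A log2(fold change) below 0 was found in 5 of the 35 and in 51.1% of all genes, and the median of the list was 0.49. Of the 13 genes for proteins associated with the plastid-encoded polymerase, *pTAC14*, *FLN1* and *FLN2* were upregulated. *FLN1*, for a fructokinase-like protein of this complex, had 15.8, 15.1 and 17.8 FPKM in *kaku4-2*, against 14.0, 7.58 and 7.64 FPKM in WT (log2(fold change) 0.79, SE 0.31, adjusted p = 0.294). *FLN2* had 3.56, 3.401 and 13.1 FPKM in *kaku4-2*, against 3.09, 1.88 and 1.495 FPKM in WT (log2(fold change) 1.36, SE 0.49, adjusted p = 0.269). The groups did not overlap in either, and the highest value in each was that of *kaku4-2* replicate 3.

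Of the 13 genes for RNA processing and decay, *RHON1* and *PGR3* were upregulated and *CSP41a* was downregulated. *CSP41a*, for a chloroplast RNA-binding protein with endonuclease activity, had 213, 239 and 206 FPKM in *kaku4-2*, against 294, 450 and 421 FPKM in WT (log2(fold change) −0.80, SE 0.29, adjusted p = 0.268). None of the 6 sigma factor genes, whose products direct the plastid polymerase to promoters, and none of the 3 genes for phage-type RNA polymerases passed the cutoff. Among the *kaku4-2* libraries, replicate 3 had the highest value for 32 of the 35 genes. By the ratio of the group medians, more genes of the list fell below 0 than by the log2(fold change), such as *SIG2*, *pTAC10* and *RNR1*. Without *kaku4-2* replicate 3, 2 genes of the list were upregulated and 1 was downregulated, and the median of the list was not computed. Without WT replicate 3 none passed. By transcript length, the median log2(fold change) of nuclear genes was −0.77 under 300 bases and −0.62 for 300 to under 500 bases. It was −0.56 for 500 to under 1000 bases, −0.14 for 1000 to under 2000 bases and 0.35 for 2000 bases or more.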

How the data were processed

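Total RNA of 3 *kaku4-2* and 3 WT samples was sequenced as paired 150-base reads. The authors mapped reads to TAIR10 with TopHat2 2.0.9 and deposited FPKM values per locus from Cufflinks; the annotation, the Cufflinks version, the use of strand and the treatment of reads matching several loci are not given in the sources used here. ChIP-seq samples were not analysed here. The locus lists and members were chosen with earlier results of these data known.

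FPKM values were tested as log2(FPKM + 0.1) with limma 3.58.1 (R 4.3.3; trended prior variance, two-sided, Benjamini-Hochberg) over genes with a mean of at least 0.1 FPKM. The fold change therefore understates changes of low loci. Single values are given for the 6 most abundant loci of each genome and for tested loci that passed the cutoff or have a name, except that 1 chloroplast locus past the cutoff is not reported here; the other loci are given in counts and ranges. Groups came from the labels, which call the replicates biological. Shares were compared by exact permutation over 20 splits. The smallest value above 0 was 0.0577 FPKM, shared by 3305 values, 21 of them in organelle loci; 123 of 750 organelle values were 0. The divisors behind the FPKM values were estimated from the steps between low values of nuclear genes. Of these values, 32.9% to 41.3% lay within 0.03 of a whole number (6% by chance), so no count test was run. The limma fit and the estimate of the divisors were tested on simulated data. Sequences, positions and transcript lengths are from RefSeq, TAIR10.1, whose mitochondrial sequence differs from that of TAIR10. Alternatives were another pseudocount (1 or 0.01), filter (none or 1 FPKM), scaling or prior variance, a replicate block, and each library left out.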

Additional observations from a re-analysis of the deposited data

How the results depend on the processing

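Under these alternatives, single loci were recomputed only for the reported calls and a few other loci chosen with the data known. A change of direction was therefore unlikely from the outset. Of the 234 values recomputed, none changed direction, 43 lost and 26 gained the call. Counts of calls moved more. With 2 upregulated and 1 downregulated chloroplast loci at first, a pseudocount of 1 gave 1 and 0, and quantile normalization 5 and 2; a pseudocount of 0.01 and a prior variance without trend each gave 2 downregulated. Leaving out 1 library gave 0 to 6 upregulated and 1 to 7 downregulated, while the shares of all genes ran from 2.64% to 7.33% upregulated and from 3.26% to 12.9% downregulated; the 7 fell in the setting with 12.9%. For the mitochondrial loci (1 and 7), a minimum mean of 1 FPKM, under which fewer loci are tested, gave 0 and 4, and leaving out 1 library 0 to 2 and 4 to 10. At an adjusted p of 0.05 (0 loci), leaving out 1 library gave 0 to 3: ATMG01220 without *kaku4-2* replicate 1, and ATCG00640, ATCG01060 and ATMG01120 without *kaku4-2* replicate 2. The nuclear genes for organelle gene expression (6 called) gave 3 under quantile normalization and 0 to 11 leaving out 1 library. The replicate block gave 0 upregulated and 0 downregulated chloroplast loci, 4 downregulated mitochondrial loci (3 of the 7 among them) and 2 nuclear genes. Deviations of same-numbered libraries from their group means correlated at −0.16, −0.03 and −0.41. These 3 values gave no sign of pairing, but they cannot show that the samples were unpaired. The difference in the chloroplast share turned to 0.129 percentage points without ATCG01020 and ranged from −0.787 to −0.377 leaving out 1 library; the mitochondrial difference ranged from −0.00112 to 0.000161, the highest without *kaku4-2* replicate 2. The cause of these changes was not tested. Low loci such as *rpl2* rested on few estimated fragments (0 to 5.94 per library for *rpl2*).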
